A study of Mus musculus with 6 samples.

Results

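The immediate early transcription factors described here are 10 genes, namely Fos, Fosb, Jun, Junb, Atf3, Egr1, Egr2, Egr3, Nr4a1 and Ier2. They were chosen by name, and all their probes on the arrays were taken by matching the probe's RefSeq accession to a mouse gene symbol. All 10 had a probe, 14 probes in all, out of 23462 named genes on the array. The samples were colon from 6 male mice, 3 with the genotype Control and 3 with the genotype Islr knockout, with 1 single-colour Agilent array per animal and total RNA as the molecule. Islr encodes a protein with leucine-rich repeats and an immunoglobulin domain, made in connective tissue cells. The sample source states that both groups had received 3.5% dextran sulfate sodium (DSS), which injures the colonic lining, in their drinking water for 5 days and had recovered for 1 day, whereas the entry for treatment says that none was given. The design text adds that samples went into TRIzol by flow separation, with no sort or gate named, and that RNA of good quality was selected for the arrays. The labels name the knockout only by its gene, with no driver, allele or age. The replicate numbers 1 to 3 only name the animals.

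Immediate early genes are transcribed within minutes of a growth factor, cytokine, wound or stress signal, without new protein synthesis, and their messengers are short-lived. Kinases of the ERK, JNK and p38 families act on factors already bound at their promoters, among them serum response factor, which binds a motif called the CArG box, and the cAMP response element binding protein. The products are transcription factors in turn: FOS and JUN proteins pair as AP-1, EGR proteins bind GC-rich sites through zinc fingers, and NR4A1 is an orphan nuclear receptor. In the gut they are induced in epithelium, stroma and immune cells during injury and repair.

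Promoters of 7 of the 10 genes were found in RefSeq's table for GRCm38.p6, which holds windows from 250 bases before to 50 bases after each transcription start; Egr1, Egr3 and Ier2 had no entry. The 6 stretches below are the 150 bases before the start, 5′ to 3′ on the gene's strand. They show Fos, the prototype of the group, the members with the lowest p-values (Egr2 and Atf3), those with the widest spread between knockouts (Nr4a1 and Fosb), and Jun, which lacked the motif. Capitals mark the letters TGACG, the core of the cAMP response element, on either strand (CGTCA on the other strand), and the CArG box.
Fos, chr12:85473740-85473889, plus strand: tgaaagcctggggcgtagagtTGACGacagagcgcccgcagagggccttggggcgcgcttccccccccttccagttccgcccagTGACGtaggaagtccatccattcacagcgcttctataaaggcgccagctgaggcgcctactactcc
Fosb, chr7:19310046-19310195, minus strand: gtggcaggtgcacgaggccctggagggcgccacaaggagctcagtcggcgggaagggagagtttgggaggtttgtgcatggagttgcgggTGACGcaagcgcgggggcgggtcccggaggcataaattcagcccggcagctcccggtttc
Jun, chr4:95052223-95052372, minus strand: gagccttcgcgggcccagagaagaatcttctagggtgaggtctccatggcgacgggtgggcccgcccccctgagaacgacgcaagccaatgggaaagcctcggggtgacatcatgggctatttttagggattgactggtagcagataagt
Atf3, chr1:191183334-191183483, minus strand: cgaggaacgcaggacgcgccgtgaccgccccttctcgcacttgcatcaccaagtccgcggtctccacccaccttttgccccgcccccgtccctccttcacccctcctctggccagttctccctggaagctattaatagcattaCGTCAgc
Egr2, chr10:67537719-67537868, plus strand: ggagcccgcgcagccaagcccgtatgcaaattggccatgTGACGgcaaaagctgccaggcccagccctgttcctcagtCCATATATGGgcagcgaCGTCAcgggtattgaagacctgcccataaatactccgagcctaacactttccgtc
Nr4a1, chr15:101266696-101266845, plus strand: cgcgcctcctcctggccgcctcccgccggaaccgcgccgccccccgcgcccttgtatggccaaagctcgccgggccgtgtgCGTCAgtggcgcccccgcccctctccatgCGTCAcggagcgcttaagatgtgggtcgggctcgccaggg

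Over the whole windows, the letters TGACG occurred on either strand in 6 of the 7 genes (Fos, Fosb, Junb, Egr2, Atf3 and Nr4a1). They occurred in 20.8% of all 32851 windows of that length, and in any window of 23.0% of 27025 genes. Egr2 has 5 overlapping or neighbouring windows in the table, and the window that overlapped most others, the first of equals, was printed. In the Fos stretch the core lies at bases 66 to 62 and 129 to 125 before the start, ahead of a TATA box at 33 to 28; in Atf3 it lies at 7 to 3. The CArG box was found in the windows of Egr2 only among the 7, at bases 72 to 63 before the start. It was found in 1.63% of all windows and 1.81% of genes. The EGR site GCGNGGGCG occurred in Fosb and Nr4a1, and in 5.55% of all windows and 6.27% of genes. The AP-1 site TGANTCA, which 7.81% of all windows and 8.97% of genes hold, did not occur in the windows of these 7 genes. Nor did the uninterrupted response element, TGACGTCA (1.79% of all windows and 2.03% of genes, overlapping the core). These matches describe letters in a short window and were not tested as binding sites.

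The arrays were set to a common scale by taking log2 of the processed signal and subtracting each array's 75th percentile, so that 0 is that percentile. Before this step the percentile was 6353 to 7110 intensity units in controls and 4910 to 5820 in knockouts. The slide carried the controls in row 1 and the knockouts in row 2, and genotype and slide row cannot be told apart. Islr, the targeted gene, was lower in every knockout (A_51_P140742, -1.40, -0.93 and -1.31) than in every control (1.57, 1.24 and 1.21), with an adjusted p of 0.0171 in limma. The fit used 2 control values for it, as the spot of control 1 carried an outlier mark, the scanner software's sign of an uneven or deviant spot. By the brightest probe of each gene, colonic epithelium markers were well above background on all 6 arrays for 10 of 10 genes. So were markers of fibroblasts (9 of 9), smooth muscle (9 of 9), macrophages (9 of 9), endothelium (8 of 8) and enteric neurons and glia (9 of 9). In such mixed tissue, fewer cells of a type and less RNA per cell cannot be told apart.

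The comparison set Islr knockout against control colon. None of the immediate early genes passed the test. Of the 10 genes 9 could be tested (10 of the 14 probes), and 0 were called at a 5% false discovery rate in limma, against 3.97% of all 35351 tested probes and 3.81% of named genes taken by their brightest probe. An unadjusted p under 0.05 was reached by 2 of the 9, Egr2 and Atf3, against 28.2% of named genes. Of the 9 genes 5 had a higher and 4 a lower mean in knockouts, and the median difference (knockout minus control) was 0.03 on the log2 scale, where that of all 16451 tested named genes was 0.01. This median was -0.62 without knockout replicate 3. With 3 arrays against 3, a two-sided exact permutation test cannot go below p = 0.1, and so cannot reach 0.05. With the outlier marks ignored all 10 genes could be compared, and the groups did not overlap in 4 of them (Egr2 lower, and Jun, Junb and Atf3 higher in knockouts), against 38.3% of named genes.

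**Figure D1:**
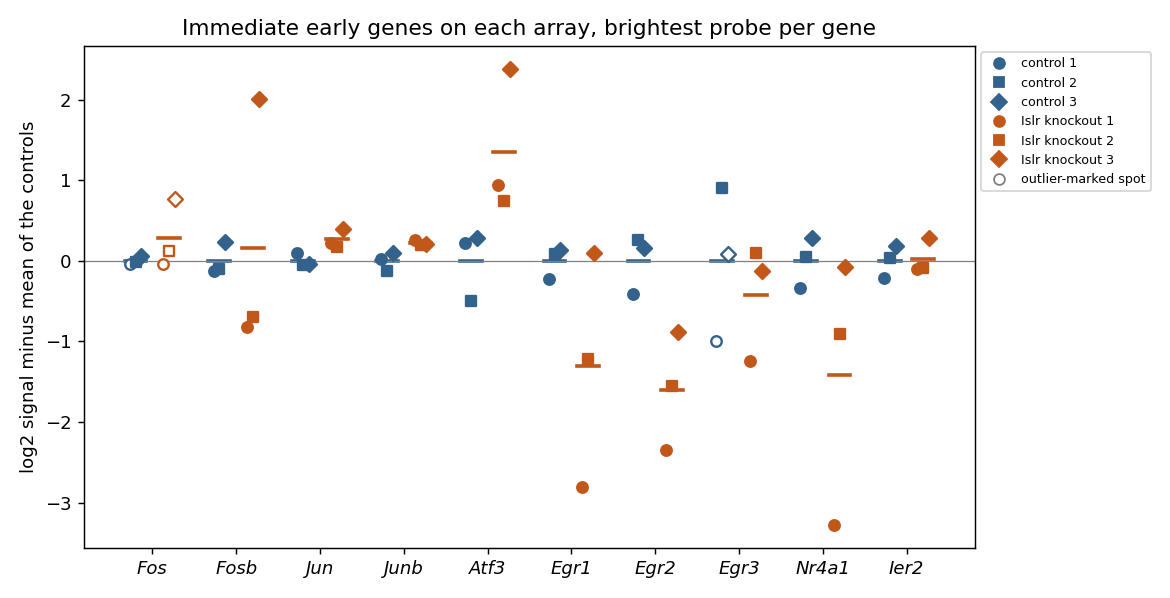
Log2 signal of the brightest probe of each of the 10 genes on each array, minus the mean of the 3 controls; circles, squares and diamonds are replicates 1, 2 and 3, open symbols are outlier-marked spots, and horizontal bars are group means. Knockout replicate 1 lies lowest and knockout replicate 3 highest among knockouts for Egr1, Egr2 and Nr4a1, while Jun and the brighter Junb probe vary little.

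FOS is the prototype of the AP-1 proteins that pair with a JUN protein. Its probe (A_55_P2910184) had log2 values of 1.80, 1.83 and 1.91 in controls 1, 2 and 3 and of 1.81, 1.97 and 2.61 in knockouts 1, 2 and 3. Its spot was outlier-marked in control 1 and in all 3 knockouts, so it left the fit, and these values keep the marked spots. The groups overlapped through knockout 1 only. Knockout 2 lay a little above every control, and knockout 3 stood well above the rest. With marks kept, the difference was 0.29 (SE 0.23, adjusted p 0.463 in limma), with a 95% interval from -0.27 to 0.84. It was 0.05 without knockout 3. Fosb, a second FOS family member, had a wider spread. Its brighter probe (A_55_P2113051) gave -0.25, -0.23 and 0.11 in controls and -0.94, -0.82 and 1.88 in knockouts. Knockouts 1 and 2 thus lay below every control and knockout 3 above every control, and the mean difference was 0.16 (SE 0.73, adjusted p 0.909 in limma), with a 95% interval from -1.59 to 1.91. Without knockout 3 it was -0.76 (adjusted p 0.137 in limma). The dimmer Fosb probe (A_55_P2744102) was well above background on 2 of 3 arrays in each group and was not tested; knockout 3 again gave the highest of its 6 values, -4.10 against -5.76 to -4.41 on the other arrays.

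Jun and Junb encode JUN family members that pair with FOS proteins. Jun (A_55_P2158990) read 1.85, 1.69 and 1.71 in controls and 1.98, 1.93 and 2.15 in knockouts. Every knockout lay above every control, by little: the difference was 0.27 (SE 0.15, adjusted p 0.292 in limma; exact permutation p 0.1), with a 95% interval from -0.08 to 0.62. The brighter Junb probe (A_51_P159194) read 2.58, 2.42 and 2.65 in controls and 2.81, 2.74 and 2.76 in knockouts. Here too the groups did not overlap, and the difference of 0.22 (SE 0.14, adjusted p 0.363 in limma) had a 95% interval from -0.12 to 0.56. Both differences depended on the scaling, at 0.12 for Jun and 0.07 for Junb after quantile normalization. The dimmer Junb probe (A_55_P2011106) had the opposite sign. It read -2.51, -2.54 and -2.33 in controls and -3.71, -3.04 and -2.32 in knockouts, a difference of -0.56 (SE 0.34, adjusted p 0.335 in limma), with knockout 3 level with control 3 and the other knockouts below all controls.

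ATF3 is a stress-induced factor of the same bZIP class that can bind both AP-1 and cAMP response element sites. Atf3 (A_52_P452689) read 0.05, -0.67 and 0.11 in controls and 0.77, 0.57 and 2.22 in knockouts. All knockouts were above all controls, and knockout 3 was far above the other knockouts. The difference was 1.36 (SE 0.46), which is 2.56-fold. Its unadjusted p was 0.0237 and its adjusted p 0.125 in limma, with a 95% interval from 0.25 to 2.47. It was 0.84 without knockout 3, so that array alone moved it by more than 1.5 times. Atf3 was called under array weighting, which gives noisier arrays less influence (1.77, adjusted p 0.0373 in limma), and under no other setting. Array weighting called 23.0% of all tested probes, against 3.97% in the fit reported.

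The EGR genes encode zinc-finger factors induced by growth factors, of which EGR1 is the most studied and EGR2 and EGR3 are also known from lymphocytes and Schwann cells or muscle spindles. Egr1 (A_51_P367866) read 1.53, 1.85 and 1.89 in controls and -1.05, 0.54 and 1.86 in knockouts. Knockouts 1 and 2 were below the controls and knockout 3 was among them. The difference was -1.31 (SE 0.67, adjusted p 0.262 in limma) with a 95% interval from -2.91 to 0.29. It was -0.56 without knockout 1 and -2.01 without knockout 3, and it missed the threshold in both fits (adjusted p 0.466 and 0.110 in limma).

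Egr2 came nearest to the threshold. Its probe (A_51_P173043) read -0.53, 0.15 and 0.04 in controls and -2.46, -1.67 and -1.0 in knockouts, so all knockouts lay below all controls; 18.8% of named genes showed that pattern. The difference was -1.60 (SE 0.39), which is 3.02-fold. Its unadjusted p was 0.00498 and its adjusted p 0.0667 in limma, with a 95% interval from -2.52 to -0.67. With 1 array left out at a time the difference ran from -1.95 to -1.22 and the adjusted p from 0.0614 to 0.187. It was called under 3 of the 8 other settings on all 6 arrays: normexp with quantile normalization (adjusted p 0.0402 in limma), centring on the median (0.0427) and array weighting (0.0159). In that order, these settings called 7.84%, 6.36% and 23.0% of all tested probes, against 3.97% in the fit reported.

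Egr3 was dim and varied most among controls. Its tested probe (A_55_P2787986) read -4.18, -2.32 and -2.42 in controls and -4.03, -3.15 and -3.23 in knockouts. Control 1 was the lowest of all arrays, so the groups overlapped, and the difference was -0.50 (SE 0.53, adjusted p 0.585 in limma), with a 95% interval from -1.77 to 0.77. It was -1.10 without control 1 and -0.17 without control 2. The brighter Egr3 probe (A_52_P440836) was outlier-marked in controls 1 and 3; with marks kept it read -3.73, -1.83 and -2.65 against -3.98, -2.64 and -2.86. The remaining Egr3 probe (A_51_P437198) was well above background on none of the arrays.

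NR4A1 (also called NUR77) is a nuclear receptor without a known classical ligand, induced in macrophages, lymphocytes and stroma. Nr4a1 (A_51_P239654) read 1.49, 1.87 and 2.11 in controls and -1.45, 0.91 and 1.74 in knockouts. Knockout 3 lay among the controls, knockout 2 below them and knockout 1 far below. The difference was -1.42 (SE 0.77, adjusted p 0.283 in limma; exact permutation p 0.2) with a 95% interval from -3.25 to 0.41. It was -0.49 without knockout 1 and -2.09 without knockout 3. Ier2, a small nuclear protein of the immediate early response, gave 1.15, 1.40 and 1.55 in controls and 1.27, 1.27 and 1.65 in knockouts (A_51_P481325). The groups overlapped, with control 1 below every knockout and knockout 3 above every control, and a difference of 0.03 (SE 0.19, adjusted p 0.938 in limma) and a 95% interval from -0.42 to 0.47; its sign turned under quantile normalization (-0.07) and without control 1 (-0.08) or knockout 3 (-0.10).

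**Figure D2:**
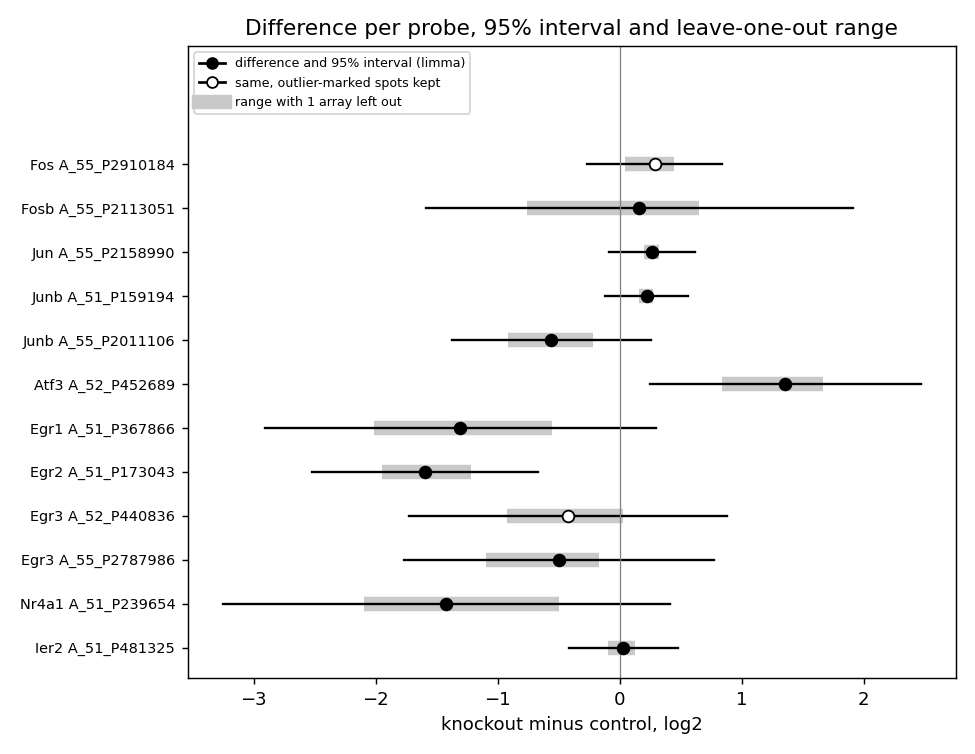
Knockout minus control on the log2 scale for the 12 probes that could be fitted, with the 95% interval of limma (line) and the range when 1 array is left out (grey bar); open circles keep outlier-marked spots. The interval excludes 0 for Egr2 and Atf3 before adjustment for the number of probes, and it spans 0 for the other probes.

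The knockouts differed from each other more than the controls did for 8 of the 10 genes by their brightest probe (all but Junb and Egr3, marks kept), against 53.6% of 17865 named genes. The median SD of the 10 genes was 0.20 in controls and 0.72 in knockouts; over all named genes these medians were 0.22 and 0.24. An SD over 1 in knockouts was found for Nr4a1 (1.66), Fosb (1.60) and Egr1 (1.46), 3 of 10 genes, and for 2.74% of named genes. From the lowest to the highest knockout the signal of Nr4a1 spanned 9.18-fold, that of Egr1 7.52-fold and that of Fosb 7.08-fold, whereas across the controls these spans were 1.54-fold, 1.28-fold and 1.28-fold. For Junb the probes differed: the SD in knockouts was 0.032 for the brighter probe, but it was 0.69 for the dimmer one, against 0.11 in controls. With 3 animals per group these spreads are descriptions and were not tested.

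**Figure D3:**
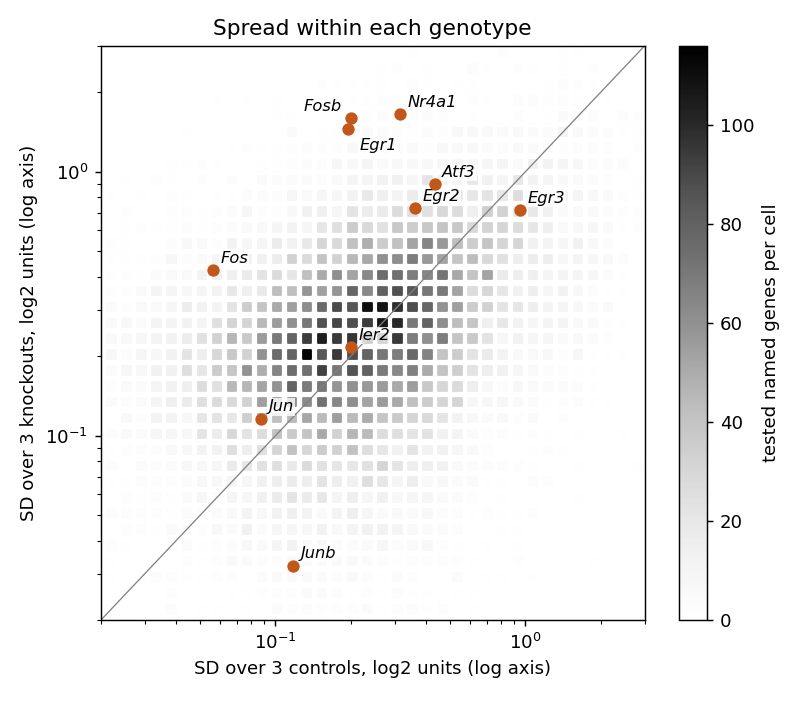
SD of the log2 signal over the 3 controls (x axis) and the 3 knockouts (y axis), both on log axes, for the brightest probe of each gene; grey squares count the 17865 tested named genes and the line marks equal spread. Nr4a1, Fosb and Egr1 lie high above the line, with knockout SDs of 1.66, 1.60 and 1.46, and the brighter Junb probe lies below it.

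The same arrays stood at the ends for most of the genes. Knockout 1 was the lowest of the knockouts for 7 of 10 genes (Fos, Fosb, Egr1, Egr2, Egr3, Ier2 and Nr4a1), which held for 39.8% of named genes. Knockout 3 was the highest of the knockouts for 8 of 10 (all but Junb and Egr3), against 27.6% of named genes, and the highest of all 6 arrays for 5 (Fos, Fosb, Jun, Atf3 and Ier2), against 12.5%. Among controls, control 1 was lowest for the same 7 genes as knockout 1, against 43.1% of named genes. Knockout 1 was also the dimmest array, with 16.0% of its spots outlier-marked and 69.4% well above background, where the other arrays had 3.26% to 13.6% and 72.7% to 75.4%. Their part in the low values of knockout 1 was not tested. Of the cell type markers, the summed signal of the 8 endothelial genes, in units of each array's 75th percentile, was 3.55 in knockout 1, 7.94 and 7.27 in knockouts 2 and 3 and 11.2 to 12.6 in controls. The sum of 9 fibroblast markers was 27.2 in knockout 1, 37.0 and 37.2 in knockouts 2 and 3 and 43.9 to 50.6 in controls, and that of 9 macrophage markers was 12.4, 19.5 and 14.2 against 19.8 to 30.0. By the brightest probe of each gene, which the sums use, all of these markers were above background on every array. Their part in the results was not tested. The 10 colonic epithelium markers went the other way, with sums of 23.4 to 64.4 in controls and 74.9 to 98.4 in knockouts. So did the 9 smooth muscle markers, with 51.5 to 63.8 in controls and 69.9 to 81.2 in knockouts. The sums of B and plasma cell markers (15.9 to 27.5 and 11.2 to 19.6) and of T cell markers (3.81 to 6.92 and 3.94 to 6.19) overlapped between controls and knockouts. That of enteric neuron and glia markers was 13.2 to 14.0 in controls and 9.78 to 12.1 in knockouts.

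Further immediate early transcription factors, from AP-1 partners to KLF factors, were taken from a fixed list of 24 genes. Of these 21 were tested, with a median difference of -0.40 (-0.74 without knockout 2, -0.61 without knockout 3 and -0.24 without knockout 1). In knockouts 5 were higher and 16 lower, where 48.8% of all tested named genes were lower. An unadjusted p under 0.05 in limma was reached by 9 of the 21, against 28.2% of named genes. After adjustment 1 was called, where 1.35% of named genes were called higher in knockouts. This was Batf2, which encodes an interferon-induced AP-1 partner. It read -0.22, -1.84 and -0.70 in controls and 1.93, 0.91 and 1.40 in knockouts, a rise of 2.34 (SE 0.45, adjusted p 0.0465 in limma). It was called in 1 of the 6 fits with an array left out, fits that called 0.13% to 5.83% of all tested probes. A dimmer probe of Nfil3, a bZIP repressor, was called as well (A_52_P500027, -1.63, SE 0.31, adjusted p 0.0446 in limma), whereas its brighter probe was at -1.50 with an adjusted p of 0.0648. The nearest relatives of the genes above, named for that kinship with their values known, were not called. Nr4a2 differed by -1.08 (SE 0.44), Fosl2 by -0.03 (SE 0.17) and Jund by 0.46 (SE 0.19), with adjusted p of 0.176, 0.938 and 0.181 in limma. Nr4a3 differed by 0.09 (SE 0.29, adjusted p 0.859 in limma), with the sign opposite to that of Nr4a2. Fosl1 and Egr4 were well above background on all controls but only 2 of 3 knockouts, and so met the background rule only through the controls. Their measured differences, which rest partly on a bound, were -1.47 (SE 0.99) and -0.31 (SE 0.36), with adjusted p of 0.383 and 0.614 in limma.

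Immediate early genes that encode other proteins, such as cytokines, kinases and matrix proteins, made a list of 20. Of these 14 were tested, with a median of -0.22 and 0 calls in limma by the brightest probe. An unadjusted p under 0.05 was reached by 6 of the 14, against 28.2% of named genes. With 1 array left out this median ran from -0.93, without knockout 3, to -0.0027, without control 3. Among the tested genes the largest differences were those of the chemokines Cxcl2 (-4.58, SE 1.16, adjusted p 0.0715 in limma) and Ccl2 (-2.28, SE 0.69, adjusted p 0.110 in limma). For Cxcl2 all controls but only 2 of 3 knockouts were well above background. It thus met the background rule only through the controls, and its measured difference rests partly on a bound. The chemokine Cxcl1 and the prostaglandin synthase gene Ptgs2 were left out of the test for outlier marks on 3 arrays each; with marks kept they differed by -2.77 and -2.66, more than Ccl2. A dimmer probe of Btg1, an antiproliferative gene, was called (A_55_P2181191, -0.92, SE 0.17, adjusted p 0.0446 in limma), while the brighter one differed by -0.03. Of 19 feedback regulators, which shut off the kinases or the messengers, 16 were tested, with a median of -0.17 and 0 calls in limma. Here 3 of the 16 had an unadjusted p under 0.05, against the same 28.2%. With 1 array left out this median ran from -0.40, without knockout 3, to -0.037, without control 3. The largest differences were those of the ERK pathway inhibitor Spry1 (-1.43, SE 0.45, adjusted p 0.117 in limma) and the MAP kinase phosphatase Dusp1 (-1.03, SE 0.30, adjusted p 0.0927 in limma). Dusp1 read 2.23, 2.24 and 2.16 in controls and 0.56, 1.22 and 1.77 in knockouts, with no overlap.

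Of the factors and kinases that switch these genes on, 26 were listed. Of these 24 were tested, 12 higher and 12 lower, and 0 were called in limma by the brightest probe. Their median of -0.06 was above 0 with outlier marks kept (0.04) and in the series' value table (0.07). An unadjusted p under 0.05 was reached by 5 of the 24, against 28.2% of named genes. Srf and Creb1, which encode the factors named in the background, were picked out with their values known. Srf differed by 0.16 (SE 0.19) and Creb1 by -0.19 (SE 0.20). The largest differences were those of the ERK-activated kinase gene Rps6ka1 (1.02, SE 0.25, adjusted p 0.0657 in limma) and the MADS-box factor gene Mef2c (-0.99, SE 0.55, adjusted p 0.295 in limma). A dimmer Rps6ka1 probe was called (A_51_P150044, 1.77, SE 0.35, adjusted p 0.0468 in limma). Heat shock genes, another rapid stress response, gave 0 calls in limma, and 0 of the 12 tested had an unadjusted p under 0.05, against the same 28.2%. Their median of 0.06 was below 0 after quantile normalization (-0.10), with normexp added (-0.11) and without knockout 1 (-0.04). The largest differences were those of Hspa1b (0.67, SE 0.29) and Hsph1 (-0.56, SE 0.25), and the summed heat shock signal was 71.1, 56.6 and 60.0 in knockouts 1, 2 and 3 and 54.2 to 63.3 in controls, so its highest array was knockout 1.

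Genes that textbooks give as AP-1 targets, chiefly matrix proteases and cytokines, had mostly lower means in knockouts. Of 14 listed 13 were tested, 12 lower and 1 higher, with a median of -2.23, and 4 were called: Spp1, Hmox1, Mmp9 and Plau. Over all tested named genes 48.8% were lower. An unadjusted p under 0.05 in limma was reached by 10 of the 13, against 28.2% of named genes. Plau, Mmp9, Il6 and Fosl1 met the background rule only through the controls, which favours lower values in knockouts, so these counts and the median are descriptions. The share called over all named genes in that direction was 2.46%. Fosl1 and Plaur stand in this list and in those above. Spp1, which encodes the matrix cytokine osteopontin, read 0.57, -0.05 and -0.72 in the 3 controls and -3.87, -2.58 and -2.61 in the 3 knockouts, a fall of 7.76-fold (-2.96, SE 0.46, adjusted p 0.0331 in limma). Mmp9, a gelatinase, read -2.24, -1.73 and -1.92 in controls and -6.06, -3.67 and -4.76 in knockouts; 1 knockout was not well above background, so the measured difference of -2.86 (SE 0.56, adjusted p 0.0468 in limma) rests partly on a bound. Hmox1, the haem-degrading oxygenase, fell by 1.50 (SE 0.25, adjusted p 0.0441 in limma), from 2 usable controls. Plau, the urokinase gene, was well above background in all controls and in no knockout, so only a bound can be given, taking for each dim array the lowest signal well above background or the probe's own where higher: at least 2.02-fold lower. The fit's adjusted p of 0.0233 in limma is no independent support, as the filter kept the probe through the controls alone. A dimmer probe of Cd44 was called (A_55_P2166501, -1.48, SE 0.25, adjusted p 0.0369 in limma). Of the list 0 were called without control 3, knockout 1 or knockout 3, and 1 without control 2, while the median then ran from -2.48 to -1.54. In that order, these fits called 0.27%, 0.74%, 0.13% and 0.22% of all tested probes. Spp1 and the Cd44 probe were called in 2 of 6 fits with an array left out, Mmp9 in 1 of 6 and Hmox1 in 1 of 4. The share of all tested probes called in such fits was 0.13% to 5.83%. Neutrophil markers were split: of 8 tested, 5 were lower, all of them called, and 3 higher, 1 of them called. The median of the 8 was -2.83 (-0.81 without control 2). The higher ones were Cd177 (1.95, called), Trem1 (0.18) and Csf3r (0.17). Ly6g, left out of the test for outlier marks, was higher by 0.78 with marks kept. The summed signal of the 9 listed was 31.5 to 35.0 in controls and 26.9 to 29.0 in knockouts, and 8 of them were well above background on all arrays. The 7 tested endothelial markers were all lower, with a median of -1.17 and 0 calls in limma (6 at an unadjusted p under 0.05, against 28.2% of named genes). The macrophage and fibroblast sums given above were lower in knockouts as well. The part of these cell type markers in the values of the AP-1 target genes was not tested.

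**Figure D4:**
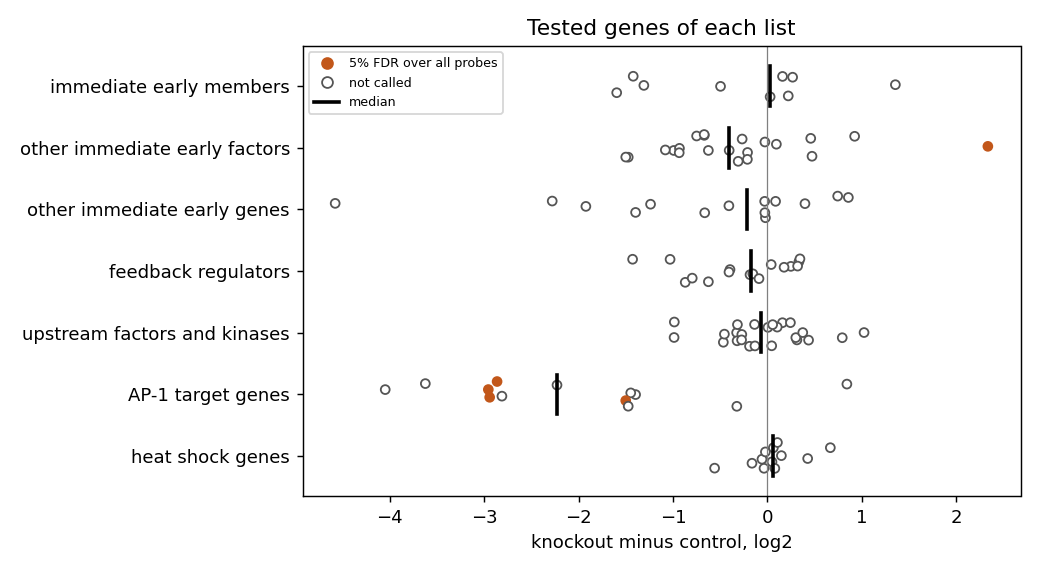
Knockout minus control on the log2 scale for each tested gene of the 7 lists, by its brightest probe; filled symbols passed the 5% false discovery rate over all probes, open ones did not, and black bars are medians. The median lies at -2.23 for AP-1 target genes and between -0.40 and 0.06 for the other lists.

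The genes whose profile over the 6 arrays lay nearest to that of Fos, by the root mean square difference of log2 values centred on each probe's mean, were sought among 16763 named genes well above background on all arrays. They were Cd55b (0.046), Midn (0.056), Cap2 (0.057), Nup98 (0.057) and Bok (0.068). Each had its highest value in knockout 3. Fos itself peaked there, so this followed from choosing the smallest distances and is no separate result. Midn, for instance, read -0.74, -0.60 and -0.61 on the control arrays, against -0.61, -0.42 and 0.10 on the knockout arrays. For Fos, the spots of control 1 and all 3 knockouts were outlier-marked, so every distance to Fos rests partly on marked spots. By the same measure the nearest of the immediate early genes were Ier2 (0.198) and Jun (0.200), and the farthest were Nr4a1 (1.16) and Egr1 (1.02). The measure takes in the size of the differences between arrays as well as their order. The SD in knockouts was 0.22 for Ier2 and 0.12 for Jun, but 1.66 for Nr4a1 and 1.46 for Egr1. For Fos, Nr4a1 and Egr1 alike, knockout 1 was the lowest and knockout 3 the highest of the knockouts.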

How the data were processed

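Each array was read with Agilent Feature Extraction 11.5.1.1, per the file headers (the submitters' processing notes name version 10.7). The deposited processed signal is a spot intensity after spatial detrending and background subtraction, without scaling between arrays, per the file headers, and is in the red channel although the labels name Cy3. The series' value table holds the same intensity averaged over spots, as deposited (log2 correlation above 0.999999 on every array), and served as an alternative. Values were log2 minus the array's 75th percentile over non-control spots. Spots marked non-uniform or population outliers were treated as missing. Testing required a probe to be well above background throughout 1 group or both, with at least 2 usable values in each, which left 35351 of 56605 probes. Differences were tested with limma 3.58.1 (lmFit, eBayes, two-sided) in R 4.3.3, fitting genotype alone, and p-values were adjusted by Benjamini-Hochberg over all tested probes. The procedure was tested on simulated data with equal spread in both groups, so unequal spreads such as that of Fosb were not covered. The brightest tested probe stood for a gene. Named genes were all members, called members of each list or its 2 largest differences, and the 5 profiles nearest to Fos; other names are marked as chosen with their values known, or are dimmer probes that were called. Symbols came from RefSeq for GRCm38.p6; the arrays were designed on mm9, so no probe coordinates are given. The number of arrays limits the precision. The p-values set each difference against the spread between arrays of the same genotype. With 1 array per animal, variation between animals and between arrays cannot be told apart. The members and lists were chosen with earlier results of these data known. Alternatives were outlier marks kept, normexp (offset 50) of the median spot signal with quantile normalization, quantile normalization alone, median centring, no filter on dim probes, array weights, trended robust variances, the value table, the mean of a gene's probes, and each array left out.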

Additional observations from a re-analysis of the deposited data

How the results depend on the processing

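Of the immediate early genes 0 were called in the fit reported. With normexp and quantile normalization 1 (Egr2) was called, under median centring 1 (Egr2) and with array weights 2 (Egr2 and Atf3). Under every other alternative run, including each array left out, 0 were called. No count was made for the mean of a gene's probes. Over all tested probes the share called was 3.97% in the fit reported and 7.84% with normexp and quantile normalization. That share was 6.36% under median centring and 23.0% with array weights. Their median difference stayed within the spread between arrays in all alternatives but those without knockout replicate 3: with 1 array left out it ran from -0.62 to 0.12, and with outlier marks kept as well, a combination chosen after seeing the data, from -0.34 to 0.18. With 1 array left out Fosb ran from -0.76, without knockout replicate 3, to 0.65, with marks left out or kept. The brighter Egr3 probe turned to 0.028 without control replicate 2 with marks kept. Ier2 turned to -0.067 under quantile normalization, and to -0.078 without control replicate 1 and -0.097 without knockout replicate 3, with marks left out or kept. The causes were not tested. The count of called probes was 1403, and 2773 with normexp and quantile normalization, 2185 with quantile normalization, 2249 with median centring, 484 without the filter on dim probes, 8119 with array weights (50.7% of them higher in knockouts against 39.1%), 2274 in the value table and 40 to 2114 with 1 array left out; 10% of calls were higher without knockout replicate 3 and 55.1% without control replicate 1. No paired analysis was possible because the labels give the animals no shared replicate numbers. Dim signals limit Egr3 and the dimmer Fosb probe, and outlier marks limit Fos.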
